A study of Homo sapiens with 6 samples.

Results

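The HOX cofactors of the PBX, MEIS and PKNOX families were followed here through 8 genes: PBX2, PBX3, PBX4, MEIS1, MEIS2, MEIS3, PKNOX1 and PKNOX2. They were chosen by name, and each matched its own row among the 27434 rows of the gene tables; other genes of these families were not analysed here. The study asked what is lost when HOXA-AS3 or HOXB-AS3 is depleted. These are long noncoding RNAs made from corresponding positions within the HOXA and HOXB clusters. Cultures of HT-29, a line from a human colorectal tumour, received a non-targeting siRNA pool (siNT), a pool against HOXA-AS3 (siHOXA-AS3) or a pool against HOXB-AS3 (siHOXB-AS3), at 10 nM for 48 h according to the labels, and the study's methods give a higher dose. All 3 groups share the line, the transfection reagent and the time, and each holds 2 poly(A) RNA-seq libraries. The sources do not say whether the libraries of a group came from separate transfections, so p-values measure the spread between these samples, which may be technical.

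HOX proteins bind DNA weakly and with little selectivity on their own. PBX proteins contact a short peptide in front of the homeodomain of most HOX proteins of groups 1 to 8 and bind a joint site with them, and MEIS and PKNOX (PREP) proteins bind PBX, bring it into the nucleus and stabilise it, and MEIS proteins can also pair directly with HOX proteins of groups 9 to 13. All 3 families carry a homeodomain of the TALE class, which has extra residues between its first helices.

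The promoters of PBX2 and PBX3 are shown because these close relatives had unlike values after siHOXB-AS3, and that of MEIS2 because it holds both a joint PBX-HOX motif and a CCAAT box. The sequences, from RefSeq on GRCh38.p14, run 5′ to 3′ along the gene. They go from 250 bases before to 50 after an annotated start, while the authors' processing notes name hg19. The PBX2 window spans the outer end of its gene, and the PBX3 and MEIS2 windows lie inside theirs. RefSeq windows were matched for 7 of the 8 genes, all but PKNOX2. Capitals mark TGACAG (a MEIS and PKNOX motif), TGATNNAT (a PBX-HOX motif) or CCAAT, searched on both strands; the last of these can share bases with the other two.
PBX2, chr6:32190153-32190452, minus strand: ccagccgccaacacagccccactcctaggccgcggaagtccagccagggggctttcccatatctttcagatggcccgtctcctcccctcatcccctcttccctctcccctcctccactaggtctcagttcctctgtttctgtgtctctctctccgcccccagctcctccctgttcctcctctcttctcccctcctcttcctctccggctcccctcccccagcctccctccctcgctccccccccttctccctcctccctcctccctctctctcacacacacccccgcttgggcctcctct
PBX3, chr9:125747933-125748232, plus strand: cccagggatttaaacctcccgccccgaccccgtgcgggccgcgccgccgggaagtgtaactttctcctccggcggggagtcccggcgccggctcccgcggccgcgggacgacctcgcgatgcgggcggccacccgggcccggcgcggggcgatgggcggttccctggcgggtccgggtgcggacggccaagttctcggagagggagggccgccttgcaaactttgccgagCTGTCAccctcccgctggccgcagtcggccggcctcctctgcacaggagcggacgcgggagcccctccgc
MEIS2, chr15:37098647-37098946, minus strand: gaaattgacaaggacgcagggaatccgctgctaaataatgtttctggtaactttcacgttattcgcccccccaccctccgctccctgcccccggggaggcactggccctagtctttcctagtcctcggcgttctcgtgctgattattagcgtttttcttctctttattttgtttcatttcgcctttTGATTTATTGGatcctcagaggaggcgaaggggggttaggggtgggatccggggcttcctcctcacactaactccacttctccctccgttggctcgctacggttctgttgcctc
The PBX2 window held none of the 3 motifs. It was made up of pyrimidines to 79.7%, more than 99.95% of the 35116 promoter windows in the table, whose median was 49.7%. It held 8 CpG dinucleotides against a median of 14, and the PBX3 window held 43. In PBX3 the TGACAG motif began 20 bases before this inner start, on the opposite strand, a motif present in 15.8% of all windows. In MEIS2 the TGATNNAT motif began 64 bases before this start and the CCAAT box overlapped it from 58 bases before, and 7.40% and 34.6% of all windows held these motifs. The other MEIS2 start and the starts of PKNOX1 and PBX4 held none of them, and MEIS1 and 1 of the starts of MEIS3 held CCAAT. A match is a run of letters and was not tested for binding.

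Total expected counts per library, which are RSEM's estimates of fragments per gene, ranged from 15998518 to 26263938. HOXA-AS3 had 38 and 18 expected counts in siNT, 12 and 12 in siHOXA-AS3 and 30 and 22 in siHOXB-AS3. HOXB-AS3 had 303 and 213 in siNT, 263 and 208 in siHOXA-AS3 and 67 and 76 in siHOXB-AS3. Of 10 colon epithelial markers 9 had a mean of at least 1 FPKM (fragments per kilobase of transcript, scaled to library size), CDX2 being at 0.19. Of 8 fibroblast markers none reached it and 4 had no count (summed FPKM 0.06 to 0.11 in siNT, 0.09 to 0.10 in siHOXA-AS3 and 0.15 to 0.24 in siHOXB-AS3), none of 4 endothelial markers did (0.01 to 0.07 over the libraries), and of 6 immune markers LYZ alone did (mean 920 FPKM), the others summing to 0.49 to 1.37 FPKM. The siHOXA-AS3 libraries stood further apart than the others: across genes, log2 differences between replicates had an SD of 0.73 there, 0.42 in siNT and 0.37 in siHOXB-AS3. The difference between the siHOXA-AS3 libraries went with GC content (Pearson r = -0.75 over 12622 genes, which are not independent replicates). The same r was 0.42 in siNT, where the trend ran the other way, and -0.15 in siHOXB-AS3.

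Of the 8 cofactors 4 were abundant and 4 were near or at 0. PBX2 averaged 12.05 ± 2.95 FPKM (SD, n = 6 libraries), MEIS2 9.28 ± 1.017, PBX3 8.81 ± 0.973 and PKNOX1 7.40 ± 0.581. The order of PBX2 and MEIS2 depended on the group: PBX2 was at 14.9 ± 0.396 FPKM in siNT (SD, n = 2) against 10.2 ± 1.202 for MEIS2, and at 8.78 ± 0.311 in siHOXB-AS3 against 9.24 ± 0.191 for MEIS2 and 8.95 ± 0.509 for PBX3. Over all libraries MEIS2 and PBX3 did not differ beyond their spread. PBX4 averaged 0.662 ± 0.270 FPKM, MEIS1 0.525 ± 0.153 and MEIS3 0.357 ± 0.30, each gap between neighbours among these 3 being within the spread. PKNOX2 had 0 counts in every library, which allows up to 3 counts, or 0.114 to 0.188 CPM (counts scaled to library size) depending on the library, for counting error only. Each family was thus represented mainly by 1 or 2 genes: PBX by PBX2 and PBX3, MEIS by MEIS2 and PKNOX by PKNOX1. 7 of the 8 genes, all but PKNOX2, passed the filter on low counts and entered the tests over 13034 genes.

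**Figure D1:**
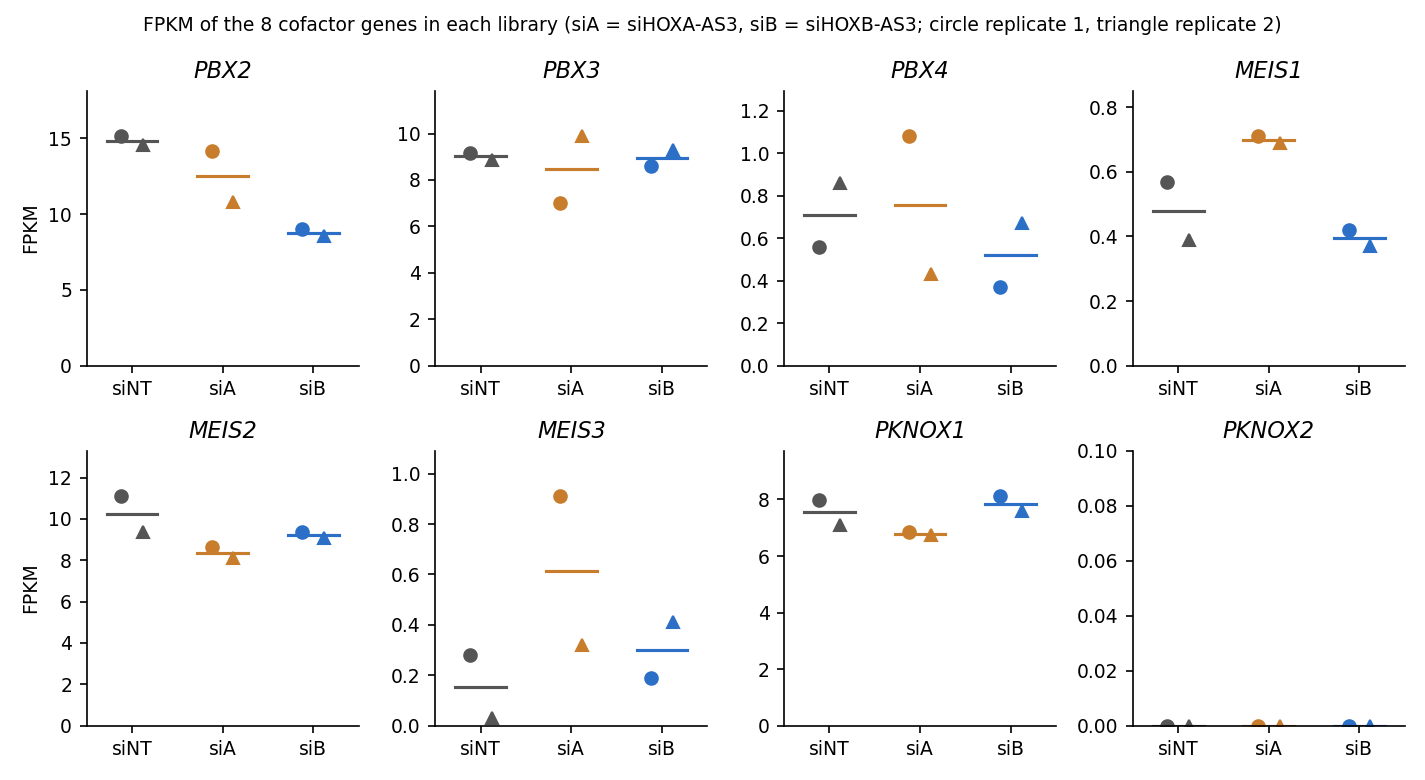
FPKM of the 8 genes (y axis, one scale per gene, from 0) in the 6 libraries, by group, with circles for replicate 1, triangles for replicate 2 and lines for the mean of each group. PBX2 lies at 14.6 to 15.1 FPKM in siNT and at 8.56 to 9.0 in siHOXB-AS3, and PBX3 does not separate the groups.

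PBX2, the most abundant member in siNT and siHOXA-AS3, a PBX protein made in most tissues (gene at chromosome 6, 32184733 to 32190202, GRCh38.p14), was lower in the siHOXB-AS3 libraries. It had 1229 and 722 expected counts in siNT, 1030 and 570 in siHOXA-AS3, and 689 and 579 in siHOXB-AS3. Scaled as FPKM these were 15.13 and 14.57, 14.19 and 10.82, and 9.0 and 8.56. Both siHOXB-AS3 libraries lay below every other library, and both siHOXA-AS3 libraries lay below both siNT libraries. The log2 fold change of siHOXB-AS3 against siNT was -0.71 (SE 0.20, 95% interval -1.18 to -0.24), a level of 0.611 of siNT with an interval from 0.440 to 0.848. Its unadjusted p was 0.00922 in edgeR's quasi-likelihood test and its Benjamini-Hochberg adjusted p over all genes was 0.218, so it did not pass the threshold of 0.05. DESeq2 gave an adjusted p of 0.105.

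The call for PBX2 depended on the siHOXA-AS3 libraries, which set part of the shared estimate of spread. When the fit held siNT and siHOXB-AS3 alone the fold change was again -0.71 and the adjusted p was 0.000205, and 23.3% of all genes tested were then called. Without siHOXA-AS3 replicate 1 the adjusted p was 0.000151, where 22.7% of genes were called, and without replicate 2 it was 0.000123, where 22.6% were. With a GC trend removed from each library the fold change was -0.66 and the adjusted p 0.0066, beside 13% of genes called. PBX2 transcripts lie at percentile 72.3 of GC content. Without any 1 of the siNT or siHOXB-AS3 libraries the fold change stayed between -0.74 and -0.68. Such a fit leaves 1 library in a compared group, so only the size is given. Over all tested genes 8.45% had a more negative fold change than PBX2.

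**Figure D2:**
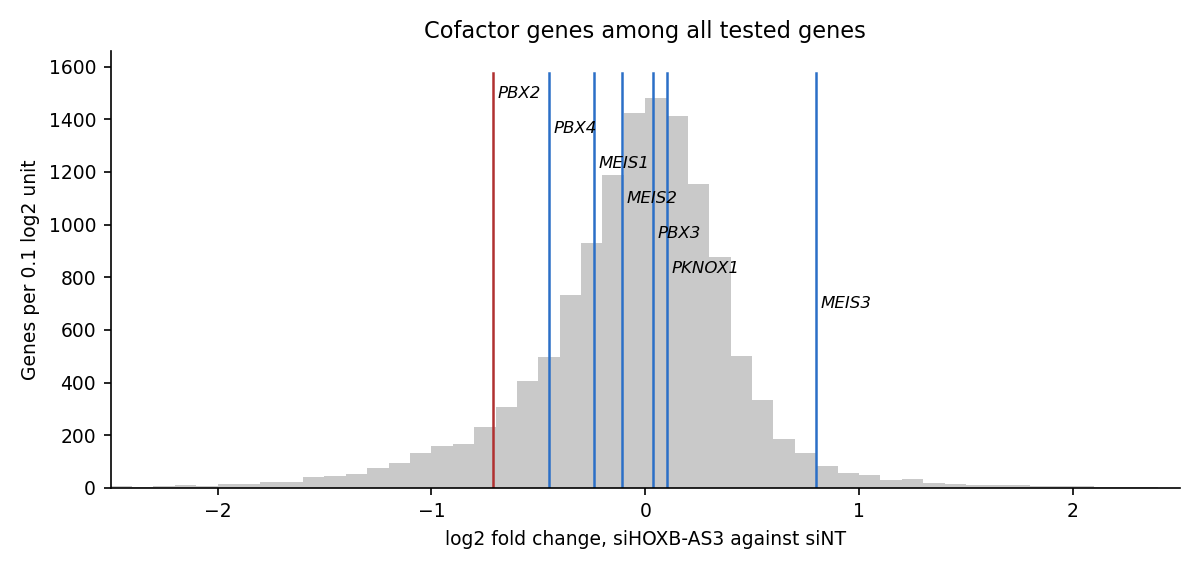
Number of tested genes (y axis) by log2 fold change of siHOXB-AS3 against siNT (x axis, bins of 0.1, a few genes at the far ends not drawn), with vertical lines at the 7 tested cofactors, PBX2 in red. PBX2, at -0.71, lies in the lower tail, where 8.45% of genes had a more negative value, and PBX3, at 0.04, near the middle.

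In siHOXA-AS3 PBX2 differed from siNT by -0.24 on the log2 scale (SE 0.20, 95% interval -0.71 to 0.23, edgeR adjusted p = 0.975). Its siHOXA-AS3 libraries were 0.38 apart on that scale, replicate 2 being the lower. Without replicate 1 the fold change was -0.45 with an adjusted p of 0.0296, where 30.3% of all genes were called, and without replicate 2 it was -0.05. Between the knockdowns (KDs) PBX2 was lower in siHOXB-AS3 by -0.47 on the log2 scale (95% interval -0.945 to -0.000994, edgeR adjusted p = 0.271, with an unadjusted p under 0.05). With the GC trend removed the adjusted p was 0.0155, where 25.1% of genes were called. Without siHOXA-AS3 replicate 2 the fold change was -0.66, and without replicate 1 it was -0.26. The fits without a siHOXA-AS3 library also leave 1 library in a compared group here, so only the size is given.

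PBX3, a PBX family member known from leukaemia with MEIS1 and HOXA9, stayed within the spread of its libraries (chromosome 9, 125747373 to 125967377). It was at 9.15 and 8.88 FPKM in siNT, 7.03 and 9.88 in siHOXA-AS3 and 8.59 and 9.31 in siHOXB-AS3. Only the siHOXA-AS3 libraries were far apart, and the groups overlapped in every comparison. The log2 fold change was 0.04 for siHOXB-AS3 against siNT (SE 0.22, 95% interval -0.49 to 0.57, adjusted p = 0.972) and -0.11 for siHOXA-AS3 (SE 0.22, 95% interval -0.64 to 0.42, adjusted p = 0.997). PBX4, found mainly in the testis, had 23 and 22 expected counts in siNT, 39 and 11 in siHOXA-AS3 and 14 and 22 in siHOXB-AS3. Its groups overlapped, and its intervals were wide, from -1.82 to 0.92 around -0.45 for siHOXB-AS3 against siNT. Like PBX2 and MEIS3 (percentile 92.7), PBX4 is rich in GC (percentile 81.2) and was lower in replicate 2 than in replicate 1 of siHOXA-AS3. PBX3, at percentile 39.2, was higher there. The other members low in GC did not rise with it. MEIS1, MEIS2 and PKNOX1, at percentiles 37.7, 43.1 and 41.0, differed by -0.03, -0.13 and -0.02 on the log2 scale. The part of GC content in these values was not tested.

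MEIS2, the abundant MEIS gene, which is needed for the palate, heart and neural crest derivatives, was slightly lower in siHOXA-AS3 (chromosome 15, 36889204 to 37101311). It was at 11.09 and 9.39 FPKM in siNT, 8.63 and 8.09 in siHOXA-AS3 and 9.37 and 9.10 in siHOXB-AS3. The siHOXA-AS3 libraries lay below all others. The siHOXB-AS3 libraries lay just under the lower siNT library on this scale and overlapped it after TMM scaling of the counts. The log2 fold change was -0.32 for siHOXA-AS3 against siNT (SE 0.19, 95% interval -0.76 to 0.12, edgeR adjusted p = 0.918), and -0.11 for siHOXB-AS3 (SE 0.19, 95% interval -0.55 to 0.33, adjusted p = 0.879).

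MEIS1, a partner of HOXA9 in leukaemia and in blood stem cells, was low throughout, with 46 and 19 expected counts in siNT, 51 and 36 in siHOXA-AS3 and 32 and 25 in siHOXB-AS3. As FPKM it was at 0.57 and 0.39 in siNT, 0.71 and 0.69 in siHOXA-AS3 and 0.42 and 0.37 in siHOXB-AS3, so that both siHOXA-AS3 libraries were the highest. The log2 fold change of siHOXA-AS3 against siNT was 0.53 (SE 0.33, 95% interval -0.25 to 1.31, edgeR adjusted p = 0.930), 0.86 without siNT replicate 1 and 0.30 without siNT replicate 2. The siHOXB-AS3 level differed from siHOXA-AS3 by -0.77 (95% interval -1.56 to 0.01, edgeR adjusted p = 0.279). For siHOXB-AS3 against siNT it was -0.24, 0.08 without siNT replicate 1 and -0.47 without siNT replicate 2.

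MEIS3, a gene known from hindbrain patterning, had the fewest counts of the tested members. They were 14 and 1 in siNT, 41 and 9.99 in siHOXA-AS3, and 9 and 16.9 in siHOXB-AS3. The siHOXA-AS3 libraries both exceeded siNT once scaled for depth (0.91 and 0.32 FPKM against 0.28 and 0.03), but replicates differed as much as groups. The log2 fold change of siHOXA-AS3 against siNT was 1.84 (SE 0.85, 95% interval -0.19 to 3.86, edgeR adjusted p = 0.854). Leaving out siHOXA-AS3 replicate 1 gave 0.80 and leaving out siNT replicate 1 gave 4.13, and without siHOXA-AS3 replicate 2 it was 2.36. For siHOXB-AS3 against siNT it was 0.80 with an interval from -1.35 to 2.95, and leaving out siNT replicate 1 gave 3.10, siNT replicate 2 gave 0.14, siHOXB-AS3 replicate 1 gave 1.28 and siHOXB-AS3 replicate 2 gave 0.19.

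PKNOX1, the PREP1 protein, which competes with MEIS for PBX and is made in most tissues, was the steadiest abundant member (chromosome 21, 42974562 to 43033931). It was at 7.97 and 7.11 FPKM in siNT, 6.84 and 6.75 in siHOXA-AS3 and 8.11 and 7.60 in siHOXB-AS3. The siHOXA-AS3 libraries were the lowest and the siHOXB-AS3 libraries overlapped siNT. The log2 fold change against siNT was -0.13 in siHOXA-AS3 (SE 0.18, 95% interval -0.55 to 0.28, adjusted p = 0.997) and 0.10 in siHOXB-AS3 (SE 0.18, 95% interval -0.31 to 0.52, adjusted p = 0.881).

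**Figure D3:**
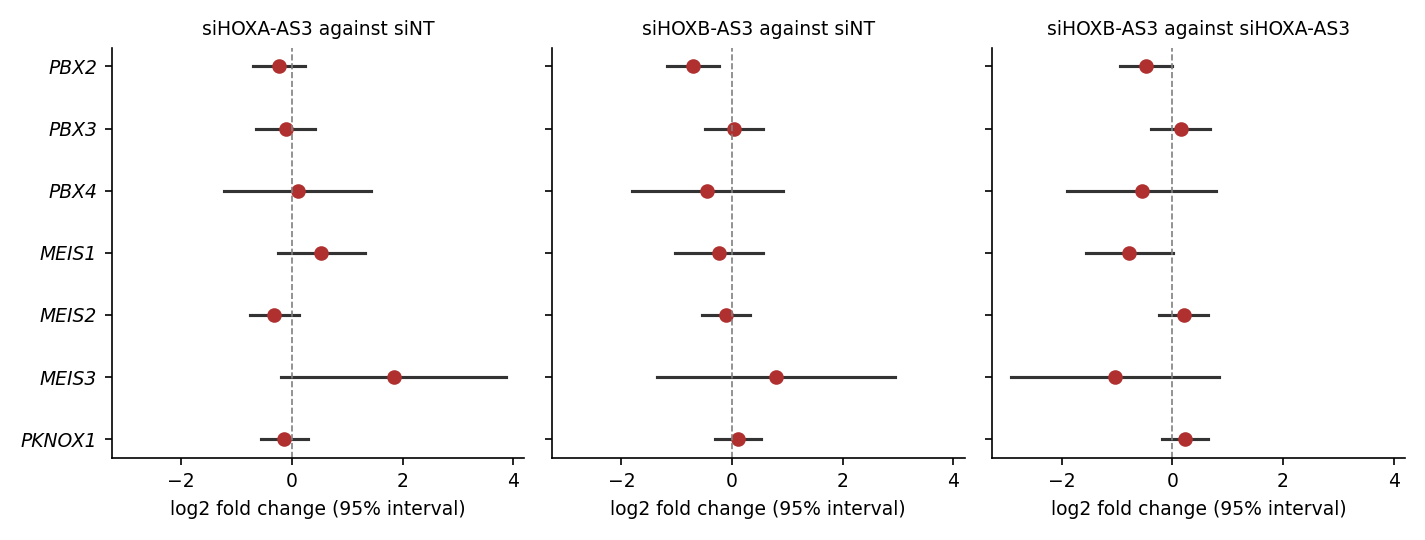
Log2 fold changes (x axis) with 95% intervals (lines) of the 7 tested cofactors in the 3 comparisons, from the fit over all 6 libraries. The interval of PBX2 for siHOXB-AS3 against siNT, from -1.18 to -0.24, excludes 0 before adjustment, and those of PBX4 and MEIS3, with few counts, are the widest.

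In siHOXA-AS3 against siNT edgeR called none of the 7 tested cofactors, 0 had an unadjusted p under 0.05 and DESeq2 called 0. Over all genes edgeR called 0% there (803 genes had an unadjusted p under 0.05 and DESeq2 called 49). Both libraries lay below both siNT libraries for 3 cofactors (PBX2, MEIS2 and PKNOX1) and above them for 2 (MEIS1 and MEIS3), where 16.1% and 12.5% of all genes did so. In siHOXB-AS3 against siNT edgeR called 0 cofactors beside 0.0614% of all genes. PBX2 alone, 1 of 7, had an unadjusted p under 0.05, near the 12.2% of all genes that did, and DESeq2 called 0 of them beside 2.84% of genes. PBX2 alone lay below siNT in both libraries and no cofactor above, where 30.9% of genes were below and 30.9% above, so the share of members apart, 1 of 7, was under that of the background. Between the KDs edgeR called 0 of the 7 beside 1.57% of genes, PBX2 alone had an unadjusted p under 0.05 beside 18.4% of all genes, and DESeq2 called 0 beside 6.26%. There PBX2 and MEIS1 were lower and MEIS2 and PKNOX1 higher in both siHOXB-AS3 libraries, beside 22.5% and 22.8% of all genes. The median log2 fold change of the tested cofactors was -0.11 in each KD against siNT, where the median of all genes was 0.01 and -0.01. These comparisons share their siNT libraries.

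The make-up of the cofactor transcripts differed between the groups mainly through PBX2. In TPM, the transcript level per length scaled to the same sum in each library, PBX2 made up 33.8% and 35.3% of the summed level of the 8 genes in siNT, 36.0% and 29.2% in siHOXA-AS3, and 25.0% and 23.8% in siHOXB-AS3. The summed PBX level was 36.4 and 34.3 TPM in siNT, 31.4 and 31.8 in siHOXA-AS3 and 24.9 and 26.0 in siHOXB-AS3. It was 1.25 and 1.44 times the summed MEIS and PKNOX level in siNT, 1.30 and 1.33 times in siHOXA-AS3 and 0.993 and 1.06 times in siHOXB-AS3. PBX2 exceeded PBX3 by a factor of 1.65 and 1.64 in siNT, 2.02 and 1.09 in siHOXA-AS3, and was level with it in siHOXB-AS3 at 1.05 and 0.918. Both siHOXB-AS3 libraries were thus the lowest in each of these ratios, with no overlap with the other groups; these are descriptions of the same counts and were not tested. In bulk RNA a lower level in each cell and fewer cells that express the gene cannot be told apart.

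**Figure D4:**
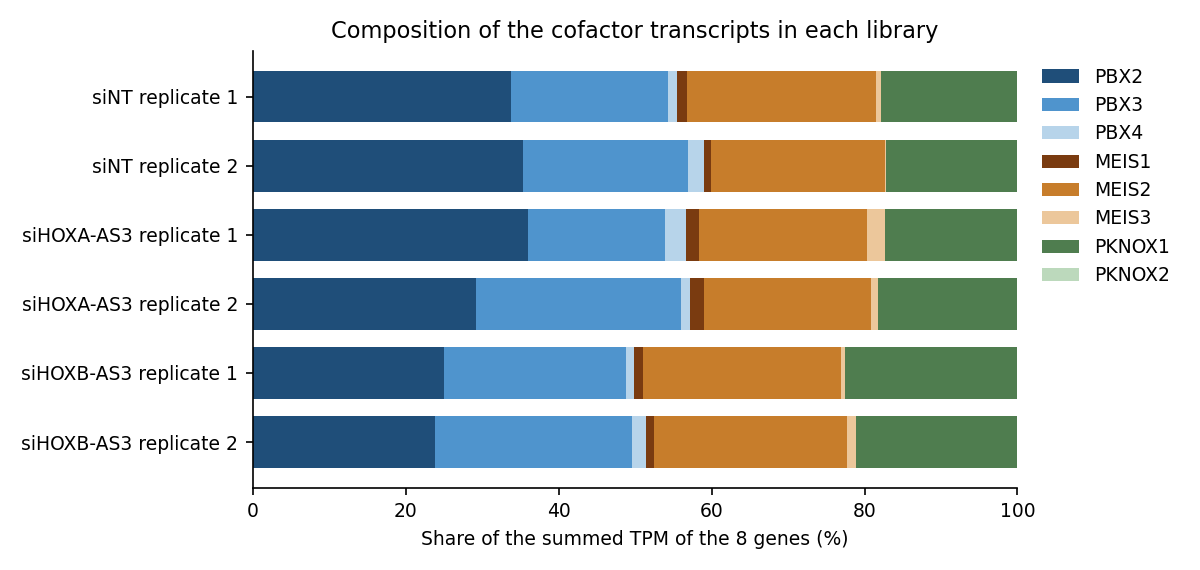
Share of each gene (colour) in the summed TPM of the 8 cofactors (x axis, percent) in each library (rows). PBX2 takes 33.8% and 35.3% with siNT and 25.0% and 23.8% with siHOXB-AS3, and the 4 genes with few counts are thin slivers or absent.

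RSEM also weights each gene's length by the estimated share of its transcripts, a second readout that the counts do not fix. For PBX3, with 4 transcripts, this length was 2635 and 2645 nt in siNT, 2606 and 2587 nt in siHOXA-AS3 and 2617 and 2661 nt in siHOXB-AS3. For MEIS2, with 9 transcripts, it was 2973 and 3044 nt, 2984 and 2900 nt, and 3007 and 2979 nt. The differences between groups were of the size of those between replicates, except that both siHOXA-AS3 libraries had the shortest PBX3 lengths. PBX2 and MEIS1 have 1 transcript each in the authors' annotation.

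The HOX genes that these cofactors partner were read in the same fits. Of 21 rows for HOX genes of groups 1 to 8, 16 passed the filter, and none was called by edgeR in any comparison. In siHOXB-AS3 against siNT 13 had a negative and 3 a positive fold change, with a median of -0.38 beside -0.01 for all genes, and 7 had an unadjusted p under 0.05, as did 12.2% of all genes. Both libraries lay below siNT for 11 of the 16 and above it for 3, where 30.9% of all genes lay below and a further 30.9% above. DESeq2 called 2 of the 16 lower, HOXB5 and HOXB8, and with only the compared groups in the fit 7 were called lower and 1 higher, beside 23.3% of all genes called in either direction. The most abundant were HOXB7 (25.3 FPKM, log2 fold change -0.61), HOXA5 (23.6 FPKM, 0.30) and HOXB8 (16.2 FPKM, -0.91), and none of these passed the edgeR test (adjusted p = 0.299, 0.714 and 0.114). HOXB5, named after its values were seen, had a fold change of -1.01 (adjusted p = 0.188). In siHOXA-AS3 against siNT 11 were negative and 5 positive, with a median of -0.13, and 0 had an unadjusted p under 0.05. HOXA-AS3 and HOXB-AS3 run antisense to several of these genes, and the sources used here do not say whether counting used the strand.

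Set against the cofactors, the summed level of these HOX genes was 286 and 284 TPM in siNT, 249 and 241 in siHOXA-AS3 and 212 and 196 in siHOXB-AS3. Per TPM of the 8 cofactors this was 4.36 and 4.88 in siNT, 4.50 and 4.33 in siHOXA-AS3 and 4.25 and 3.88 in siHOXB-AS3. The HOX sum was lowest in siHOXB-AS3, as was the cofactor sum, at 49.9 and 50.5 TPM against 65.5 and 58.2 in siNT and 55.4 and 55.6 in siHOXA-AS3, so that the ratio moved less than either sum. Of 15 rows for HOX groups 9 to 13, 7 were tested and 0 were called by edgeR or DESeq2 against siNT, with 0 unadjusted p under 0.05. HOXB9 (153.5 FPKM) had a fold change of -0.38 in siHOXB-AS3, the joint row of HOXA9 and HOXA10 (28.8 FPKM) of -0.09 and HOXA13 (18.6 FPKM) of -0.41.

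**Figure D5:**
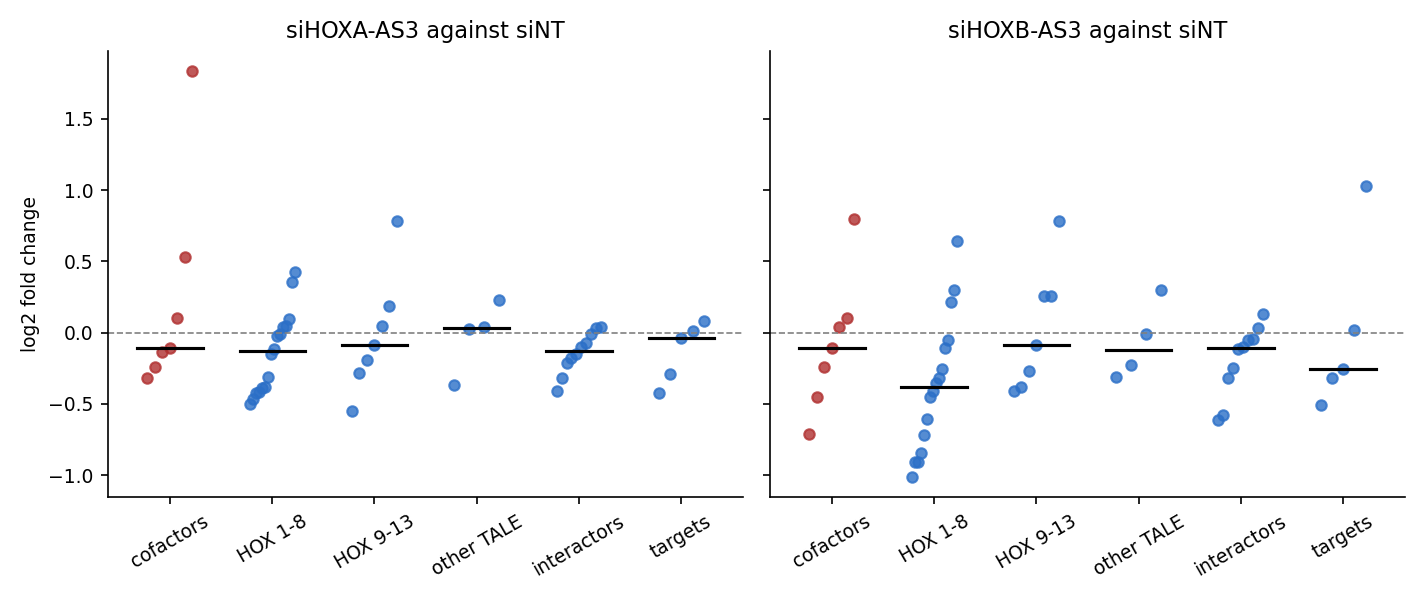
Log2 fold change against siNT (y axis) of each tested cofactor (red) and of each tested gene of 5 lists (blue), with a line at the median of each list, in siHOXA-AS3 (left) and siHOXB-AS3 (right). The HOX genes of groups 1 to 8 have the lowest median in siHOXB-AS3, -0.38, and the cofactors lie at -0.11 in both.

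No other gene of the same class or of the same complexes was called by edgeR in a comparison against siNT. Of 9 further TALE homeobox genes 4 were tested and 0 called by edgeR or DESeq2 against siNT. TGIF1, a repressor of TGF-β responses at 132.5 FPKM, had a fold change of -0.01 in siHOXB-AS3, the joint row of TGIF2 and RAB5IF (162.5 FPKM) of -0.31, and IRX2 (9.98 FPKM) of 0.30. All 10 genes for proteins that bind PBX, MEIS or PKNOX were tested and 0 were called, with 1 unadjusted p under 0.05 in siHOXB-AS3 against siNT, where 8 of them lay below siNT in both libraries and 0 above, beside 30.9% of all genes in each direction. The most abundant of all 10 were the deacetylases HDAC1 (174 FPKM, fold change -0.25) and HDAC3 (53.7 FPKM, -0.05) and the export receptor XPO1 (56.3 FPKM, 0.13). The XPO1 libraries overlapped siNT. Of 10 genes known as targets of these cofactors 5 were tested, among them HOXB2, which is also in the first HOX list, and 0 were called by edgeR. EPHA2, a receptor tyrosine kinase at 58.6 FPKM, was 1.03 higher on the log2 scale in siHOXB-AS3 (SE 0.29, edgeR adjusted p = 0.219, DESeq2 adjusted p = 0.0151). HIF1A (60.2 FPKM) was at 0.02 and CCND3, a cyclin (11.5 FPKM), at -0.25.

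The genes whose pattern over the 6 libraries was most like that of PBX2 were SHF (Pearson r = 0.999 of log2 CPM), BTG2 (0.997), an antiproliferative gene, and ACYP2 (0.994). Of 10959 genes compared 329 had an r over 0.9, and the libraries share their groups and depth, so this is a description of likeness only. The 3 tested genes on each side of PBX2 on chromosome 6, looked at after the value of PBX2 was seen, had fold changes between -0.59 (PSMB8) and -0.07 (AGPAT1) in siHOXB-AS3 against siNT. None was called in the fit of all libraries or in that of the compared groups. Only PSMB8 was lower in both libraries, as were 30.9% of all genes. TAP2 and PSMB8 are not close to PBX2, starting at 32821831 and 32840717 where PBX2 ends at 32190202.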

How the data were processed

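Poly(A) RNA from 6 HT-29 samples was sequenced (Lexogen SENSE mRNA kit), with groups taken from the labels. RSEM with a RefSeq annotation was run by the authors, who deposited its expected counts (estimated fragments per gene, not normalized). The deposited TPM values were scaled by RSEM to the same sum in each library, and the deposited FPKM values are scaled by transcript length and library size. The processing notes name hg19; aligner, versions and use of strand: not given in the sources used here. Of 27434 rows, 627 join several genes and held 6.02% to 6.62% of counts; 25945 matched a symbol. No libraries agreed within sampling noise (smallest chi-square per degree of freedom 6.78). The low counts of PBX4, MEIS1 and MEIS3 limit their precision. CPM values were computed here from the counts.

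Expected counts were rounded, filtered with filterByExpr (minimum count 10), TMM-normalized and tested with edgeR 4.0.16 (R 4.3.3; quasi-likelihood, robust) over 6 libraries, with Benjamini-Hochberg adjustment over 13034 genes and a threshold of 0.05. The fit was tested on simulated data. Alternatives were DESeq2 1.42.0, limma 3.58.1 on log2(FPKM + 0.1) or + 1, other scalings, filters and samples, a replicate block, and length or GC trends (GENCODE 29; 96.8% of genes). The members and lists were chosen with earlier results of these data known. Genes were named by a rule: the members, the targets, the 3 most abundant genes of each list and any called, and the 3 genes most like PBX2 with a mean of at least 1 FPKM.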

Additional observations from a re-analysis of the deposited data

How the results depend on the processing

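No cofactor was called in the fit of all libraries, and the counts of calls moved mainly with the samples in the fit and with GC content. List genes are counted by row here and below. With only the compared groups, siHOXB-AS3 against siNT gave 1 cofactor (PBX2), 8 HOX rows of groups 1 to 8 and 2 of groups 9 to 13. It also gave 1 other TALE row, 3 interactors and 1 target, beside 23.3% of all genes. That TALE row joins TGIF2 with RAB5IF, so the call cannot be given to TGIF2 alone. The HOX rows called include the joint row of HOXC4, HOXC5 and HOXC6. With the GC trend removed, siHOXB-AS3 against siNT gave 1 cofactor (PBX2), 7 HOX genes of groups 1 to 8, 2 of groups 9 to 13, 1 interactor and 1 target, beside 13% of all genes. The same setting gave, between the KDs, 1 cofactor (PBX2), 3 HOX genes of groups 1 to 8, 1 of groups 9 to 13, 1 other TALE gene, 2 interactors and 2 targets, beside 25.1%. DESeq2 called 2 HOX genes of groups 1 to 8 and 1 target in siHOXB-AS3 against siNT, beside 2.84% of genes. Between the KDs it called 1 target, beside 6.26% of genes. Without a filter 1 target was called in each of these comparisons, beside 1.5% and 4% of genes. The causes were not tested. The sign of PBX3 in siHOXB-AS3 against siNT turned to -0.0092 with library totals, -0.011 with limma at a pseudocount of 0.1 and -0.0102 at 1, and that of PBX4 in siHOXA-AS3 against siNT to -0.0094 with limma at 0.1. Of the member fold changes under alternatives, 350 kept their sign and side of the threshold, 11 turned sign and 8 passed the threshold. PBX2 relative to PBX3 was 1.37 in TPM as in FPKM.

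Leaving out each library in turn, which assumes that a lone sample varies like the others, gave 0 to 1 cofactors in each comparison. For siHOXA-AS3 against siNT, siHOXB-AS3 against siHOXA-AS3 and siHOXB-AS3 against siNT the counts were 0 to 5, 0 to 4 and 0 to 3 interactors, 0 to 6, 0 to 7 and 0 to 8 HOX genes of groups 1 to 8, 0 to 1, 0 to 2 and 0 to 2 of groups 9 to 13, 0 to 1, 0 to 2 and 0 to 1 other TALE genes, and 0 to 2, 0 to 3 and 0 to 1 targets, and the highest came without siHOXA-AS3 replicate 1 or 2, where 17.9% to 37.8% of all genes were called. In these fits signs turned for MEIS1 in siHOXB-AS3 against siNT (-0.47 to 0.079), PBX3 in all comparisons (-0.37 to 0.11, -0.074 to 0.40 and -0.036 to 0.11 in the order above), and PBX4 in siHOXA-AS3 against siNT (-0.75 to 0.61) and between the KDs (-1.05 to 0.31).

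The replicate numbers are shared by the groups in the labels, which do not say that they mark a batch. The deviations of replicate 1 from the group mean correlated at -0.35 between siNT and siHOXA-AS3, -0.14 between siNT and siHOXB-AS3 and 0.15 between the KDs. With the replicate number as a block, called genes went from 8 to 0 in siHOXB-AS3 against siNT, from 204 to 10 between the KDs and stayed at 0 in siHOXA-AS3 against siNT. 0 cofactors were called, and PBX2 had a fold change of -0.71 in siHOXB-AS3 against siNT (edgeR adjusted p = 0.407).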
